A study of Homo sapiens with 8 samples.

Results

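Antisense RNA genes are transcription units whose names mark them as lying on the DNA strand opposite a neighbouring gene, here called the sense gene. They were chosen by symbol, as genes named after another gene with the suffix -AS and a number, apart from SLC2A1-AS1, and were kept where more than 0.5 CPM (counts per 1000000 reads of the library) were found in at least 2 of the 8 libraries in the gene body or at the transcription start site (TSS). Of 23193 genes in the count tables, 962 carried such a symbol and 608 were kept, while 354 were below the limit in both regions. Among the 608, 571 passed in the gene body, 507 at the TSS and 470 in both regions. The sense gene, found by removing the suffix, was in the tables for 591 of the 608, as 579 distinct genes.

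The assay was PRO-seq, which measures nascent transcription: nuclei extend engaged RNA polymerases with labelled nucleotides, and the reads report polymerases on each strand and not stored RNA. The cells were HCT116, a human colorectal carcinoma line, either wild-type (WT) or HIF1A-/-, a derivative in which homologous recombination with an adeno-associated virus vector disrupted exons of HIF1A. Each genotype was kept in normoxia (21% O2) or exposed to hypoxia (1% O2) for 90 min. Per the study methods, the vehicle for PRO-seq cells was 0.1% DMSO. The 4 groups (WT normoxia, WT hypoxia, HIF1A-/- normoxia and HIF1A-/- hypoxia) held 2 libraries each, numbered replicate 1 and replicate 2. The study asked which transcription responds at once to low oxygen and how much of it depends on HIF1A. The comparison of genotypes rests on a single derived line, so that HIF1A loss and any other difference between the lines cannot be told apart, and p-values measure the spread between these 8 libraries. The replicates were independently prepared biological duplicates, per the study methods.

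HIF1A encodes the oxygen-sensitive subunit of hypoxia-inducible factor 1, which is degraded when oxygen is plentiful and otherwise pairs with ARNT to bind the core sequences ACGTG and GCGTG and activate genes of glycolysis, angiogenesis and oxygen delivery. Antisense RNA genes are a mixed class: many start beside the promoter of their sense gene and run away from it, others start inside the sense gene and run back through it, and others meet its end. Some of their RNAs have described roles, as in silencing of the INK4 locus by CDKN2B-AS1, but most have none. Because PRO-seq keeps the strand, it measures both partners of such a pair separately.

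For 3 of the antisense RNA genes that the responses described here turn on, the listed start site is shown with 250 bases before and 50 bases after, in the direction of transcription, from the GRCh37 genome. Capitals mark ACGTG or GCGTG, the letters of the HIF core sequence, on either strand (CACGT and CACGC on the printed strand are the reverse). HIF1A-AS2 was the antisense gene that passed for hypoxia in WT cells at the TSS, without the replicate number as a block in the test. In the same test BHLHE40-AS1 and UPK1A-AS1 had the smallest gene body p-values after DARS-AS1. The windows, all on the minus strand, are chr14:62215758-62216057 for HIF1A-AS2, chr3:5021597-5021896 for BHLHE40-AS1 and chr19:36164144-36164443 for UPK1A-AS1.
HIF1A-AS2: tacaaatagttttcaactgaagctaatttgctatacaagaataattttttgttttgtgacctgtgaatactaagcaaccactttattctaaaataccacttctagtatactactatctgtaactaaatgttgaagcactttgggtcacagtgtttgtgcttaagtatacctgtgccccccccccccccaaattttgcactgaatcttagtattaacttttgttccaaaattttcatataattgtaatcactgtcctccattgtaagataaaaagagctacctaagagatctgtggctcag
BHLHE40-AS1: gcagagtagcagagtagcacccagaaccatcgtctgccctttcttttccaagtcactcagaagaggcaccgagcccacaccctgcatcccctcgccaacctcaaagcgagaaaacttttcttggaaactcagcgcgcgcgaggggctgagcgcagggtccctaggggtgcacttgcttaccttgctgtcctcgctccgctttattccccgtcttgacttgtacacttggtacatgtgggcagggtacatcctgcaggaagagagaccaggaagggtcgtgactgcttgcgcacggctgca
UPK1A-AS1: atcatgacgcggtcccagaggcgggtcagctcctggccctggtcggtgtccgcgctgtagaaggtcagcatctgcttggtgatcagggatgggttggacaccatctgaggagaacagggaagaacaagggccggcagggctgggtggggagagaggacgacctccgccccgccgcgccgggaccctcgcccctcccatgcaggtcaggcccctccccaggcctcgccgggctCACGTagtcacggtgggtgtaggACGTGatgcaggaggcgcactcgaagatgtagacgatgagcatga
The HIF1A-AS2 window lay beyond the end of HIF1A, inside the annotated HIF1A-AS3 gene, and held no match in a stretch with 34.7% G and C and 0 CpG dinucleotides. The BHLHE40-AS1 window overlapped a coding exon of BHLHE40 and held no match at 57.3% G and C. The UPK1A-AS1 window overlapped coding exons and an intron of UPK1A and held 2 ACGTG matches, at offsets -18 and 5 from the start. A match describes the letters in the window and not bound factor, and the absence of one says nothing of sites elsewhere.

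Gene body totals ran from 18125234 to 23622392 reads per library and TSS totals from 2783581 to 5966348. Antisense genes held 1.15% to 1.44% of the gene body reads and 2.64% to 3.02% of the TSS reads. At this depth 3 reads, the most that a count of 0 allows, corresponded to 0.127 to 0.166 CPM in the gene body and 0.503 to 1.08 CPM at the TSS, counting error only. Of 9 colorectal epithelial markers 7 passed the limit, with levels up to 516 CPM, whereas of 8 markers of other cell types 3 passed, with levels up to 50.3 CPM for COL1A1; CEACAM5 and CDX1 did not pass, and neither did the leukocyte gene PTPRC. HIF1A itself stood at 134 and 150 CPM in normoxic WT cells, 129 and 164 in hypoxic WT cells, 157 and 141 in normoxic HIF1A-/- cells and 172 and 166 in hypoxic HIF1A-/- cells, so the gene body count did not separate the genotypes and cannot check a short deletion. As a check, 33 of 57 known HIF target genes rose in the gene body with hypoxia in WT cells (0.431% of all genes did). With the replicate number as a block 48 rose (3.73% of all genes). In HIF1A-/- cells 0 of 57 rose (0% of all genes), and 1 with the block (0.03%). These calls are by edgeR at a false discovery rate of 10%, and the list was chosen with earlier results of these data known. Gene bodies nested inside another gene body on the same strand were listed at 0 in all libraries for 431 of 431 genes. On the opposite strand this held for 185 of 876 nested genes. Antisense partners were thus counted apart, while gene bodies nested on the same strand were not. Partial overlaps on the same strand were not examined.

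The commonest arrangement was head to head, with both start sites within 1 kb, in 241 of 608 antisense genes (39.6%). Of these, 141 started upstream of the sense start and 100 at or downstream of it, and the median distance was -50 bp. A further 141 (23.2%) started inside the sense gene, at a median of 12744 bp from its start, and are called internal below. Another 61 (10.0%) started beyond its end by at most 10 kb and are called tail to tail. The 148 (24.3%) with any other position on the opposite strand are called apart. Overlap with the sense gene was neither required nor excluded in either class. The other 17 (2.80%) had no sense gene in the tables. Antisense gene bodies were shorter than others, with a median of 11.4 kb over 571 genes against 25.6 kb over 16115.

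The median density of reads per length was lower for antisense genes than for other genes in each of the 8 libraries, in the gene body and at the TSS. In WT normoxia the median gene body density was 0.726 and 0.889 RPKM (reads per kb of region and per 1000000 reads, computed here) in replicates 1 and 2, against 1.27 and 1.32 for the other genes. The median TSS density was 49.5 and 51.4 RPKM against 74.1 and 69.5. The ratio of TSS to gene body density, a measure of polymerase held near the start, was alike in both classes, with a median of 10.6 and 9.76 for antisense genes and 10.5 and 9.76 for the others in normoxic WT cells. In HIF1A-/- normoxia replicate 1, the library with the smallest TSS total, it was 6.72 against 5.81. The TSS was the denser region in 83.6% to 87.7% of antisense genes per library, and in 88.4% to 92.5% of other genes. These shares were not tested.

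The densest antisense gene bodies in normoxic WT cells were LRRC75A-AS1 at 108 RPKM, ASH1L-AS1 at 61.1, ST20-AS1 at 56.0, RALY-AS1 at 47.0 and EPB41L4A-AS1 at 38.7. LRRC75A-AS1 and EPB41L4A-AS1 are hosts of small nucleolar RNAs. LRRC75A-AS1 stood at 114 and 152 CPM in normoxic WT cells, 132 and 89.3 in hypoxic WT cells, 139 and 95.9 in normoxic HIF1A-/- cells and 121 and 95.3 in hypoxic HIF1A-/- cells, with the 4 groups overlapping. At the TSS the densest were VPS9D1-AS1 at 713 RPKM, TMEM9B-AS1 at 580, CHKB-AS1 at 580, LRRC75A-AS1 at 576 and PAXIP1-AS1 at 558.

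In WT cells, 1 of 571 antisense genes rose in the gene body after 90 min of hypoxia, DARS-AS1, and 0 fell. This was by edgeR's quasi-likelihood test without a replicate block, at a false discovery rate of 10% over all 16686 genes tested. Of all these genes 0.431% rose and 0% fell. With the replicate number as a block, 32 antisense genes rose (3.73% of all genes) and 1 fell (1.77%). DARS-AS1 lies head to head with DARS, which encodes the aspartyl-tRNA synthetase. It stood at 9.47 and 14.3 CPM in normoxic WT cells, 34.5 and 41.3 in hypoxic WT cells, 10.5 and 11.2 in normoxic HIF1A-/- cells and 12.1 and 14.1 in hypoxic HIF1A-/- cells. Both WT hypoxia libraries were above all the other 6. The normoxia libraries of the genotypes overlapped, and the HIF1A-/- hypoxia libraries lay above the HIF1A-/- normoxia libraries and within the range of the WT normoxia libraries. The log2 fold change was 1.65 ± 0.22 (SE, n = 2 per group; edgeR adjusted p = 0.0354) in WT cells and 0.23 ± 0.22 (edgeR adjusted p = 1) in HIF1A-/- cells. The WT call held in each of the other 4 settings of the test, but leaving out any 1 of the 4 WT libraries (normoxia replicate 1 or 2, hypoxia replicate 1 or 2) took the adjusted p to between 0.104 and 0.399, with log2 changes of 1.39 to 1.95. In these bulk libraries, more polymerases per cell and more cells transcribing the gene cannot be told apart.

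DARS itself stood at 138 and 151 CPM in normoxic WT cells, 242 and 299 in hypoxic WT cells, 131 and 123 in normoxic HIF1A-/- cells and 129 and 125 in hypoxic HIF1A-/- cells, and it rose by 0.87 ± 0.14 on the log2 scale in WT cells (edgeR adjusted p = 0.0834). Unlike its gene body, the DARS-AS1 TSS region stood at 41.9 and 53.0 CPM in normoxic WT cells and 58.9 and 51.0 in hypoxic WT cells, where the groups overlapped (log2 change 0.24, edgeR adjusted p = 0.922).

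**Figure D1:**
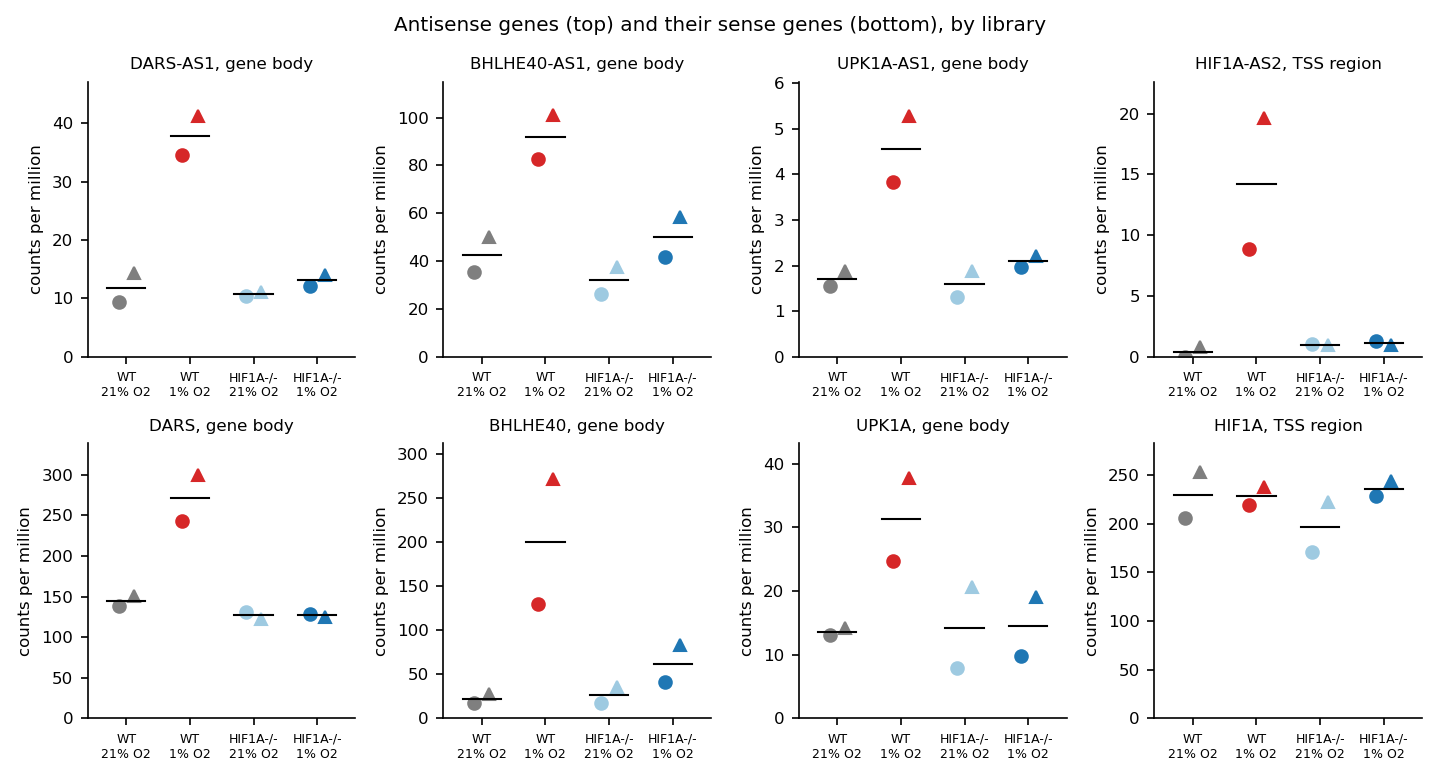
Levels in each library, in CPM on the y axis, for 4 antisense genes (top row: gene body for DARS-AS1, BHLHE40-AS1 and UPK1A-AS1, TSS for HIF1A-AS2) and their sense genes (bottom row), by group on the x axis; circles are replicate 1, triangles replicate 2 and lines the group mean. DARS-AS1 sat at 34.5 and 41.3 CPM in hypoxic WT cells and at or below 14.3 in the other 6 libraries, and HIF1A-AS2 at 8.83 and 19.6 against at most 1.33.

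At the TSS without the block, 1 of 507 antisense genes rose with hypoxia in WT cells, HIF1A-AS2, and 0 fell. Of all 15212 genes 0.046% rose and 0% fell. HIF1A-AS2 lies tail to tail with HIF1A, on the minus strand of chromosome 14. Its TSS region held 0 and 3 reads in normoxic WT cells, 42 and 117 in hypoxic WT cells, 3 and 4 in normoxic HIF1A-/- cells and 4 and 4 in hypoxic HIF1A-/- cells, or 0 and 0.787, 8.83 and 19.6, 1.08 and 0.933, and 1.33 and 0.935 CPM. Both WT hypoxia libraries were above the other 6. The log2 change in WT cells was 5.21 ± 0.79 (edgeR adjusted p = 0.0686), and on summed reads, 159 against 3, the ratio of levels was 40.8 with a 95% exact counting interval of 13.7 to 200. The call was lost when any 1 of the 4 WT libraries was left out, with an adjusted p up to 1. Its gene body was at 0 reads in all 8 libraries. The start lies inside the annotated HIF1A-AS3 gene on the same strand. Listing at 0 was shown only for gene bodies nested inside another counted gene body, and whether HIF1A-AS3 was counted was not examined. Whether this 0 comes from the counting was not tested. HIF1A-AS1, at the start of HIF1A, stood at 1.01 and 2.21 CPM in the gene body in normoxic WT cells and 1.74 and 3.09 in hypoxic WT cells (log2 change 0.57, edgeR adjusted p = 0.897), and these groups overlapped.

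The next 4 antisense gene bodies by p-value, taken up in turn after these counts, passed by edgeR only with the replicate number in the fit as a block. The replicate numbers mark a shared deviation between groups, and with that block 32 of 571 antisense gene bodies rose (3.73% of all genes did) and 1, KDM4A-AS1, fell (1.77% of all genes did). The 32 log2 changes ran from 0.38 for GNG12-AS1 to 1.78 for LHFPL3-AS2. By arrangement, calls were made in 12 of 229 head to head, 8 of 127 internal, 9 of 142 apart, 2 of 57 tail to tail and 2 of 16 antisense genes without a sense gene. DESeq2 called 2 higher, DARS-AS1 and BHLHE40-AS1 (1.04% of all genes), and 0 lower (0.00599%). Without adjustment, 31 had p under 0.05 and a higher level and 2 a lower one, against 3.51% and 1.1% of all genes. At the TSS the block gave 8 higher (0.789% of all genes) and 0 lower (0.217%), DESeq2 gave 1 higher (0.0986%) and 0 lower, and 15 higher (2.44%) and 3 lower (1.58%) had an unadjusted p under 0.05. The 8 were HIF1A-AS2, NRSN2-AS1, UPK1A-AS1, EIF1B-AS1, ZRANB2-AS2, OSER1-AS1, PITRM1-AS1 and SEPSECS-AS1, of which NRSN2-AS1, UPK1A-AS1 and PITRM1-AS1 also passed in the gene body.

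BHLHE40-AS1 lies head to head with BHLHE40, a transcriptional repressor of the basic helix-loop-helix family that is known to be induced by low oxygen. Its gene body stood at 35.5 and 49.9 CPM in normoxic WT cells, 82.6 and 101 in hypoxic WT cells, 26.5 and 37.7 in normoxic HIF1A-/- cells and 41.7 and 58.4 in hypoxic HIF1A-/- cells. The WT hypoxia libraries were the highest of the 8, and within each genotype the hypoxia library exceeded the normoxia library of the same replicate. The log2 change was 1.07 ± 0.23 in WT cells (edgeR adjusted p = 0.222, and 9.7e-04 with the block) and 0.60 ± 0.23 in HIF1A-/- cells (edgeR adjusted p = 1). BHLHE40 stood at 16.9 and 27.4, 130 and 271, 17.3 and 35.6, and 40.8 and 83.1 CPM in the same order and rose by 3.15 ± 0.50 in WT cells (edgeR adjusted p = 0.0708).

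UPK1A-AS1 starts inside UPK1A, which encodes a uroplakin of the bladder lining, and was weakly transcribed. Its gene body stood at 1.55 and 1.88 CPM in normoxic WT cells, 3.84 and 5.29 in hypoxic WT cells, 1.32 and 1.89 in normoxic HIF1A-/- cells and 1.97 and 2.22 in hypoxic HIF1A-/- cells, with both WT hypoxia libraries above the rest. The log2 change in WT cells was 1.39 ± 0.35 in the gene body (edgeR adjusted p = 0.444, 0.0282 with the block) and 1.21 ± 0.34 at the TSS (edgeR adjusted p = 0.922, 0.00420 with the block). UPK1A stood at 13.0 and 14.2 CPM in normoxic WT cells and 24.7 and 37.8 in hypoxic WT cells (log2 change 1.17, edgeR adjusted p = 0.897).

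MIF-AS1 is named after MIF, an inflammatory cytokine. It stood at 27.8 and 30.1 CPM in normoxic WT cells, 44.9 and 49.1 in hypoxic WT cells, 16.4 and 24.3 in normoxic HIF1A-/- cells and 19.1 and 25.3 in hypoxic HIF1A-/- cells. The log2 change in WT cells was 0.67 ± 0.19 (edgeR adjusted p = 0.663, 0.0382 with the block). NOP14-AS1, tail to tail with the ribosome assembly factor gene NOP14, was at 34.7 and 48.3 CPM in normoxic WT cells and 56.0 and 88.1 in hypoxic WT cells, but also at 58.4 and 67.9 in normoxic HIF1A-/- cells and 90.3 and 99.8 in hypoxic HIF1A-/- cells. Its log2 change in WT cells was 0.77 ± 0.23 (edgeR adjusted p = 0.705, 0.0421 with the block), while NOP14 was at 138 and 120 CPM in normoxic WT cells and 134 and 104 in hypoxic WT cells. Antisense partners of genes with a known link to hypoxia were not all among these: RORA-AS1 stood at 28.4 and 31.0 CPM in normoxic WT cells and 35.4 and 42.7 in hypoxic WT cells, and VLDLR-AS1 at 3.67 and 3.53 and at 5.48 and 5.38, with an edgeR adjusted p of 0.897 for each.

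In HIF1A-/- cells, 0 of 571 antisense gene bodies and 0 of 507 antisense TSS regions passed for hypoxia in either direction by edgeR, against 0% of all genes. With the replicate block the counts were again 0 and 0 (0.03% of all gene bodies were higher and 0.00599% lower, and 0.00657% of all TSS regions higher), and DESeq2 also called 0 (0.012% of all gene bodies higher and 0.036% lower). Before adjustment, 7 antisense gene bodies with p under 0.05 were higher and 3 lower, where 1.05% and 1.03% of all genes were, and 4 TSS regions were higher and 4 lower, where 0.506% and 0.381% were. The smallest p-value was that of LHFPL3-AS2, at 0.227 and 0.426 CPM in normoxic HIF1A-/- cells and 1.03 and 2.02 in hypoxic HIF1A-/- cells (log2 change 2.17 ± 0.68, edgeR adjusted p = 1). It was also at 0.193 and 0.497 CPM in normoxic WT cells and 0.737 and 1.69 in hypoxic WT cells, a log2 change of 1.80 ± 0.69, so that hypoxia libraries were above normoxia libraries in both genotypes. KCNAB1-AS1 had the same order, with log2 changes of 1.62 in HIF1A-/- cells and 1.41 in WT cells. LHX4-AS1 stood at 17.5 and 16.2 CPM in normoxic HIF1A-/- cells and 12.3 and 12.4 in hypoxic HIF1A-/- cells (log2 change -0.48, edgeR adjusted p = 1).

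The difference in response between the genotypes was tested as an interaction. It called 0 of 571 antisense gene bodies (0.0539% of all genes had a larger response in WT cells) and 0 of 507 TSS regions (0.00657%), by edgeR. Before adjustment, 3 gene bodies with p under 0.05 had the larger response in WT cells (1.26% of all genes) and 0 the smaller (0.102%), as did 8 (0.822%) and 1 (0.362%) TSS regions. The smallest gene body p-value was that of DARS-AS1, whose response was larger in WT cells by 1.42 ± 0.31 on the log2 scale (edgeR adjusted p = 0.624). With the replicate block the difference was 1.43 (edgeR adjusted p = 0.0644) and DARS-AS1 was the 1 antisense gene body called, against 0.384% of all genes, with 0 at the TSS (0.046%). DESeq2 also called DARS-AS1, its 1 antisense gene body (0.408%), and 0 TSS regions (0.0197%). At the TSS the smallest p-value was that of HIF1A-AS2 (difference 5.06 ± 1.35, edgeR adjusted p = 1.00, and 0.362 with the block). PITRM1-AS1 stood at 10.3 and 9.05 CPM in normoxic WT cells, 16.2 and 13.5 in hypoxic WT cells, 11.8 and 11.2 in normoxic HIF1A-/- cells and 10.8 and 11.5 in hypoxic HIF1A-/- cells, a difference in response of 0.67 (edgeR adjusted p = 1.00).

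Beyond single genes, most antisense gene bodies had a small positive change in hypoxia. In WT cells the median log2 change over 571 antisense genes was 0.18, with 408 (71.5%) above 0, while the median was -0.02 over the other genes (46.6% above 0), -0.03 over the sense genes and -0.02 over all genes tested. The change was similar in replicate 1 (median 0.19) and replicate 2 (0.16). In HIF1A-/- cells the median was 0.09, with 379 (66.4%) above 0, and -0.002 over the other genes. Within replicates 1 and 2 it was 0.11 and 0.08. Leaving out 1 library moved the WT median between 0.06 and 0.35 and the HIF1A-/- median between -0.02 and 0.25. Each such fit leaves 1 library without its same-numbered partner. The WT median was lowest without normoxia replicate 1 or hypoxia replicate 2 (0.06 each) and highest without normoxia replicate 2 (0.35) or hypoxia replicate 1 (0.30). The HIF1A-/- median was below 0 without normoxia replicate 1 (-0.01) or hypoxia replicate 2 (-0.02), and 0.25 and 0.23 without the other libraries of that line. The shift was present for library totals without TMM scaling, at 0.21 against 0.01 for all genes. At the TSS the antisense median was 0.09 in WT cells, against -0.02 over the other genes, and 0.01 in HIF1A-/- cells, against -0.01. Leaving out 1 library moved these TSS medians between 0.02 and 0.17 in WT cells, lowest without normoxia replicate 1 or hypoxia replicate 2, and between -0.01 and 0.04 in HIF1A-/- cells.

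In the gene body, sparser genes had the higher median change in both gene classes, and at the TSS of WT cells denser genes did. For antisense gene bodies in WT cells, the median log2 change was 0.10 for the denser gene bodies and 0.28 for the sparser ones, and among the other genes -0.08 and 0.13. The corresponding medians in HIF1A-/- cells were 0.06 and 0.15, and -0.03 and 0.08. At the TSS in WT cells they were 0.11 for denser and 0.006 for sparser antisense genes, and 0.01 and -0.11 for the other genes. By arrangement, the WT median was 0.24 for internal antisense genes, 0.21 for those apart from the sense gene, 0.16 head to head, 0.03 tail to tail and 0.49 for the 16 without a sense gene. The antisense share of gene body reads went up with hypoxia in each replicate, from 1.15% to 1.27% in replicate 1 and from 1.27% to 1.44% in replicate 2 of WT cells, and from 1.15% to 1.22% and from 1.25% to 1.33% in HIF1A-/- cells. What part level has in the shift was not tested.

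**Figure D2:**
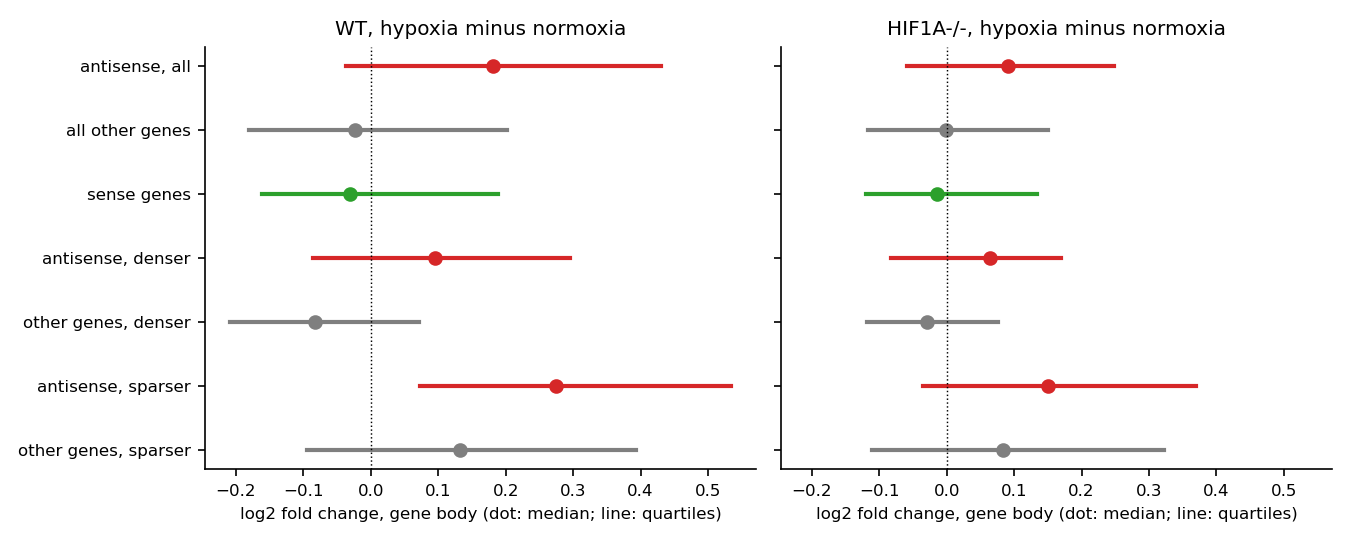
Median (dots) and quartiles (lines) of the gene body log2 change in hypoxia, on the x axis, for antisense genes, other genes and sense genes and for the denser and sparser part of the first 2 classes, in WT and HIF1A-/- cells. The antisense median lies at 0.18 in WT and 0.09 in HIF1A-/- cells, and the sparser part lies to the right of the denser part in each class.

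Between genotypes, 7 of 571 antisense gene bodies differed in normoxia and 18 in hypoxia. In normoxia 4 were higher in HIF1A-/- cells (0.725% of all genes were) and 3 lower (1.05%), and in hypoxia 7 were higher (1.47%) and 11 lower (2.79%). All 7 normoxia calls recurred in hypoxia in the same direction, which is 100% of the normoxia calls and 38.9% of the hypoxia calls. Over all genes 275 of 297 normoxia calls recurred, 92.6% of them and 38.7% of the hypoxia calls, and these contrasts share no library. With the replicate block the counts were 15 higher (3.93%) and 49 lower (6.39%) in normoxia, and 29 higher (13.1%) and 120 lower (15.1%) in hypoxia. DESeq2 called 9 higher (1.79%) and 10 lower (1.98%) in normoxia, and 9 higher (3.12%) and 25 lower (4.73%) in hypoxia. At the TSS 2 were higher (0.224%) and 1 lower (0.434%) in normoxia, and 3 higher (0.44%) and 2 lower (0.664%) in hypoxia. The block raised these to 14 higher (2.24%) and 10 lower (2.04%), and 28 higher (7.47%) and 49 lower (6.97%), and DESeq2 gave 4 higher (0.394%) and 1 lower (0.506%), and 6 higher (1.05%) and 4 lower (0.999%).

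CCDC144NL-AS1, which starts inside CCDC144NL and has its gene body at chr17:20772746-20808543, had the largest difference among the antisense genes called in normoxia. It stood at 0.531 and 1.05 CPM in normoxic WT cells, 0.632 and 1.35 in hypoxic WT cells, 14.5 and 24.3 in normoxic HIF1A-/- cells and 20.6 and 23.1 in hypoxic HIF1A-/- cells, with no overlap between genotypes. The log2 difference was 4.61 ± 0.44 in normoxia (edgeR adjusted p = 0.00298) and 4.41 ± 0.42 in hypoxia (edgeR adjusted p = 0.00237), and both calls held without any single library. At the TSS it was at 3 and 4 reads in normoxic WT cells, 0 and 0 in hypoxic WT cells, 18 and 49 in normoxic HIF1A-/- cells and 28 and 46 in hypoxic HIF1A-/- cells. That is at least 17.7-fold higher in hypoxia, against a floor of 3 reads per library (edgeR adjusted p = 0.00203), a call that held without any single library. The TSS call in normoxia (log2 difference 3.39, edgeR adjusted p = 0.0333) was lost without either WT normoxia library, with an adjusted p up to 0.314. CCDC144NL stood at 0.0966 and 0.552, 0.527 and 0.635, 2.36 and 5.11, and 3.79 and 5.57 CPM in the same order of groups, higher in HIF1A-/- cells by 3.53 in normoxia (edgeR adjusted p = 0.0623) and 2.97 in hypoxia (edgeR adjusted p = 0.0547).

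The other 3 antisense genes higher in HIF1A-/- cells under both oxygen levels were PPP1R26-AS1, PRKG1-AS1 and GAS6-AS2. PPP1R26-AS1, named after a regulatory subunit of protein phosphatase 1, stood at 30.8 and 26.5 CPM in normoxic WT cells, 24.5 and 24 in hypoxic WT cells, 50.6 and 50.6 in normoxic HIF1A-/- cells and 42.6 and 45.2 in hypoxic HIF1A-/- cells. Its log2 differences were 0.82 (edgeR adjusted p = 0.0453) and 0.85 (0.0278). PRKG1-AS1, which lies apart from the gene of a cGMP-dependent kinase, stood at 6.23 and 8.88, 5.69 and 9.65, 21.6 and 20.6, and 25.3 and 22.5 CPM in the same order, with log2 differences of 1.49 (edgeR adjusted p = 0.0603) and 1.63 (0.0293). Its TSS region differed too, by 1.29 in normoxia (edgeR adjusted p = 0.0174) and 1.03 in hypoxia (0.0429). GAS6-AS2, head to head with GAS6, a ligand of the TAM receptor kinases, stood at 1.16 and 1.32, 1.11 and 1.06, 9.86 and 5.49, and 9.84 and 4.29 CPM, with log2 differences of 2.64 (edgeR adjusted p = 0.0686) and 2.71 (0.0417). GAS6 stood at 95.8 and 71.9, 63.3 and 47.4, 528 and 211, and 464 and 172 CPM and passed in hypoxia (log2 difference 2.53, edgeR adjusted p = 0.0759). In normoxia the calls of PPP1R26-AS1 and PRKG1-AS1 were lost without any 1 of the 4 normoxia libraries (adjusted p up to 0.405 and 0.387), and that of GAS6-AS2 without any 1 of the 4 WT libraries or HIF1A-/- normoxia replicate 1 (up to 0.455). In hypoxia PPP1R26-AS1 was lost without any 1 of the 4 hypoxia libraries (up to 0.205), PRKG1-AS1 without WT or HIF1A-/- hypoxia replicate 1 (up to 0.158), and GAS6-AS2 without either WT hypoxia library or HIF1A-/- hypoxia replicate 1 (up to 0.298). The TSS calls of PRKG1-AS1 were lost without either WT normoxia library (up to 0.215) and without any 1 of the hypoxia libraries (up to 0.381).

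Of the 3 lower in HIF1A-/- cells under both oxygen levels, TRHDE-AS1 lies head to head with TRHDE, which encodes an ectoenzyme that degrades thyrotropin-releasing hormone. It stood at 11.4 and 11.4 CPM in normoxic WT cells, 12.8 and 9.19 in hypoxic WT cells, 3.05 and 3.12 in normoxic HIF1A-/- cells and 3.05 and 2.42 in hypoxic HIF1A-/- cells, with log2 differences of -1.89 ± 0.28 (edgeR adjusted p = 0.0222) and -2.02 ± 0.28 (0.0121). TRHDE was lower by nearly the same amount, with log2 differences of -1.80 (edgeR adjusted p = 0.0167) and -1.83 (0.0106). MKX-AS1 starts inside MKX, a homeobox gene of tendon development. It stood at 5.46 and 8.72, 6.53 and 9.36, 0.227 and 0.993, and 0.590 and 1.09 CPM, with log2 differences of -3.55 (edgeR adjusted p = 0.0355) and -3.25 (0.0299), and MKX differed by -2.51 (0.00134) and -2.42 (0.00131). INHBA-AS1, named after a subunit of activin A, held 13 and 25 reads in normoxic WT cells, 14 and 35 in hypoxic WT cells, 1 and 2 in normoxic HIF1A-/- cells and 2 and 2 in hypoxic HIF1A-/- cells. The ratio of its WT to HIF1A-/- level was 14.1 (95% counting interval 4.47 to 71.3) in normoxia and 11.7 (4.28 to 44.5) in hypoxia, with edgeR adjusted p of 0.0906 and 0.0601. Library totals without TMM lost the INHBA-AS1 call in normoxia. The TRHDE-AS1 call in hypoxia held without any single library, but that in normoxia was lost without either WT normoxia library or HIF1A-/- normoxia replicate 1 (adjusted p up to 0.149). MKX-AS1 was lost in normoxia without either WT normoxia library (up to 0.236) and in hypoxia without WT hypoxia replicate 2 or HIF1A-/- hypoxia replicate 1 (up to 0.205). INHBA-AS1 was lost in normoxia without any 1 of the 8 libraries (up to 0.496) and in hypoxia without any 1 of the 4 hypoxia libraries (up to 0.393).

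In hypoxia but not in normoxia, 3 more were higher in HIF1A-/- cells and 8 lower, and all 11 had the same sign in normoxia. AFAP1-AS1 held 2 and 2 reads in hypoxic WT cells and 19 and 15 in hypoxic HIF1A-/- cells, a ratio of 8.92 (95% counting interval 3.18 to 34.6; edgeR adjusted p = 0.0984). ISX-AS1, apart from the intestine-specific homeobox gene ISX, stood at 16.2 and 17.4 CPM in hypoxic WT cells and 39.8 and 76.4 in hypoxic HIF1A-/- cells (log2 difference 1.77, edgeR adjusted p = 0.0922). GAS6-AS1 stood at 161 and 137 against 276 and 233 CPM (log2 difference 0.77, edgeR adjusted p = 0.0913). Among the 8 lower genes, DARS-AS1 differed by -1.55 ± 0.22 (edgeR adjusted p = 0.0126), MIF-AS1 by -1.10 (0.0299) and BHLHE40-AS1 by -0.89 (0.0996), on the values given above. These 3 had their highest levels in hypoxic WT cells. SH3PXD2A-AS1, inside the gene of an invadopodium scaffold protein, held 13 and 36 reads in hypoxic WT cells and 0 and 0 in hypoxic HIF1A-/- cells, at least 7.47-fold lower against a floor of 3 reads per library (edgeR adjusted p = 0.035). SAMD12-AS1 stood at 9.53 and 11.8 against 1.23 and 2.86 CPM (-2.40, 0.0511) and LURAP1L-AS1 at 17.2 and 28.3 against 2.26 and 5.33 (-2.61, 0.0830). Their sense genes were lower too, SAMD12 by -2.16 (edgeR adjusted p = 0.0233) and LURAP1L by -2.52 (0.0417). FAM13A-AS1 stood at 9.37 and 8.81 against 2.95 and 3.70 CPM (-1.46, 0.0713) and IQCH-AS1 at 47.4 and 54.4 against 26.8 and 34.7 (-0.74, 0.0801). Library totals without TMM lost the calls of AFAP1-AS1, ISX-AS1, BHLHE40-AS1, LURAP1L-AS1, FAM13A-AS1 and IQCH-AS1. DESeq2 and the fit without a filter on low counts also lost AFAP1-AS1. Leaving out any 1 of the 4 WT libraries or either HIF1A-/- hypoxia library lost AFAP1-AS1, ISX-AS1, GAS6-AS1, BHLHE40-AS1, LURAP1L-AS1, FAM13A-AS1 and IQCH-AS1, with adjusted p up to 0.570. SAMD12-AS1 was lost without any 1 of the 4 WT libraries or HIF1A-/- hypoxia replicate 1 (up to 0.302), MIF-AS1 without either WT hypoxia library or HIF1A-/- hypoxia replicate 1 (up to 0.228), SH3PXD2A-AS1 without WT hypoxia replicate 2 or either HIF1A-/- hypoxia library (up to 0.218), and DARS-AS1 without WT hypoxia replicate 2 (0.118) or HIF1A-/- hypoxia replicate 1 (0.105).

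**Figure D3:**
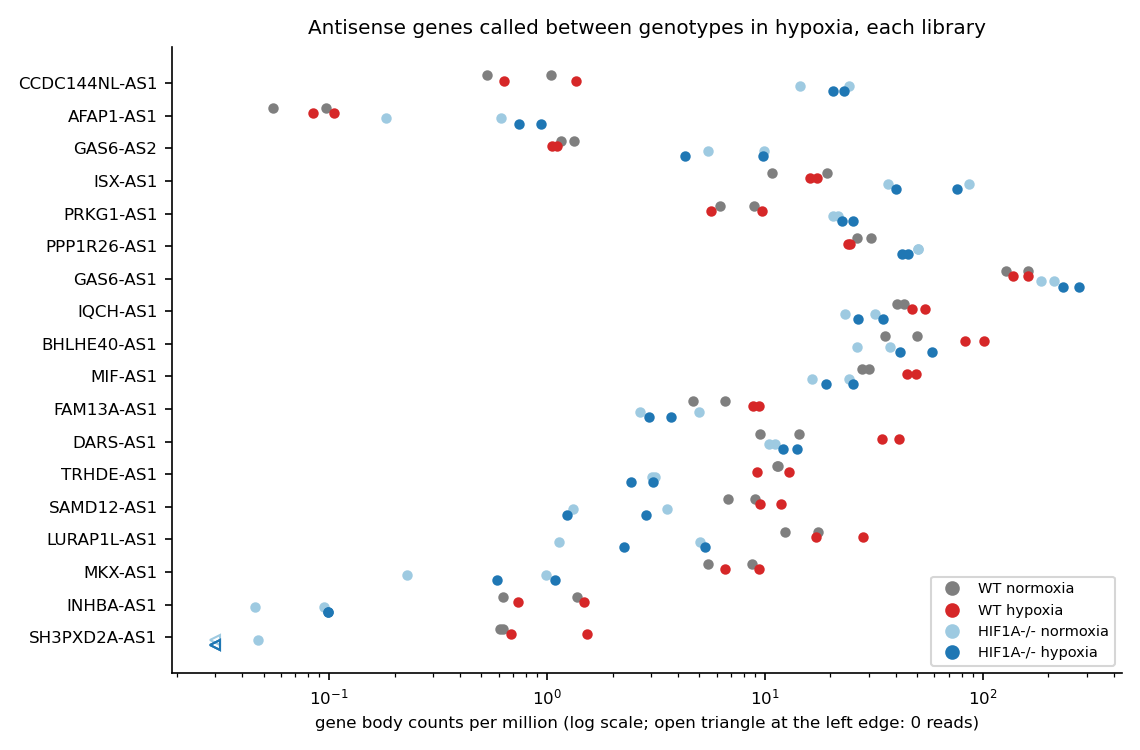
Gene body levels, in CPM on a log x axis, of the 18 antisense genes that differed between genotypes in hypoxia, with a point for each library by group; open triangles at the left edge are libraries with 0 reads. CCDC144NL-AS1 is at most 1.35 CPM in WT libraries and at least 14.5 in HIF1A-/- libraries.

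At the TSS, apart from CCDC144NL-AS1 and PRKG1-AS1, the calls between genotypes were HIF1A-AS2, TRHDE-AS1 and DEPDC1-AS1 in hypoxia and MKX-AS1 in normoxia. HIF1A-AS2 was lower in hypoxic HIF1A-/- cells by -3.68 ± 0.68 on the log2 scale (edgeR adjusted p = 0.0287). DEPDC1-AS1 stood at 17.5 and 18.4 CPM in hypoxic WT cells and 44.8 and 42.1 in hypoxic HIF1A-/- cells, and at 15.3 and 19.1 and 33.4 and 28.2 in normoxia, with no overlap between genotypes (log2 difference in hypoxia 1.25, edgeR adjusted p = 0.0487). TRHDE-AS1 differed by -1.51 (edgeR adjusted p = 0.0666) and MKX-AS1 by -2.05 (0.0686), each in the direction of its gene body. The DEPDC1-AS1 and TRHDE-AS1 calls were lost without any 1 of the 4 hypoxia libraries (adjusted p up to 0.395 and 0.557), HIF1A-AS2 without WT hypoxia replicate 2 or either HIF1A-/- hypoxia library (up to 0.404), and MKX-AS1 without any 1 of the 4 WT libraries or either HIF1A-/- normoxia library (up to 0.356).

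Whether an antisense gene and its sense gene responded unequally was tested directly in a fit over 3450 opposite-strand pairs, of which 501 were antisense genes with their sense genes and 2780 were neighbouring genes without an antisense symbol. In WT cells 0 of 501 pairs differed in their hypoxia response (0.174% of all pairs did), with 30 at an unadjusted p under 0.05, beside 141 of the 2780 other pairs, and 34 called with the replicate block (6.79% of 501, 6.65% of the 2780 other pairs and 6.58% of all pairs). The smallest p-value was that of BHLHE40-AS1, which changed by 2.01 ± 0.32 less than BHLHE40 on the log2 scale (edgeR adjusted p = 0.121, 0.000174 with the block). DARS-AS1 changed by 0.80 ± 0.20 more than DARS (edgeR adjusted p = 0.642, 0.0304 with the block). EGFR-AS1, inside the gene of the epidermal growth factor receptor, held 3 and 0 reads in normoxic WT cells, 11 and 16 in hypoxic WT cells, 0 and 0 in normoxic HIF1A-/- cells and 1 and 2 in hypoxic HIF1A-/- cells. Its ratio of WT hypoxia to WT normoxia was 8.20 (95% counting interval 2.52 to 42.2), while EGFR stood at 148 and 177 CPM and then 138 and 160 (edgeR adjusted p of the pair difference = 0.641). The median pair difference in WT cells was 0.19, with the antisense change above the sense change in 346 of 501 pairs (69.1%). In the other pairs the difference was taken as plus-strand minus minus-strand gene. Its sign is therefore arbitrary and gives no comparison.

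**Figure D4:**
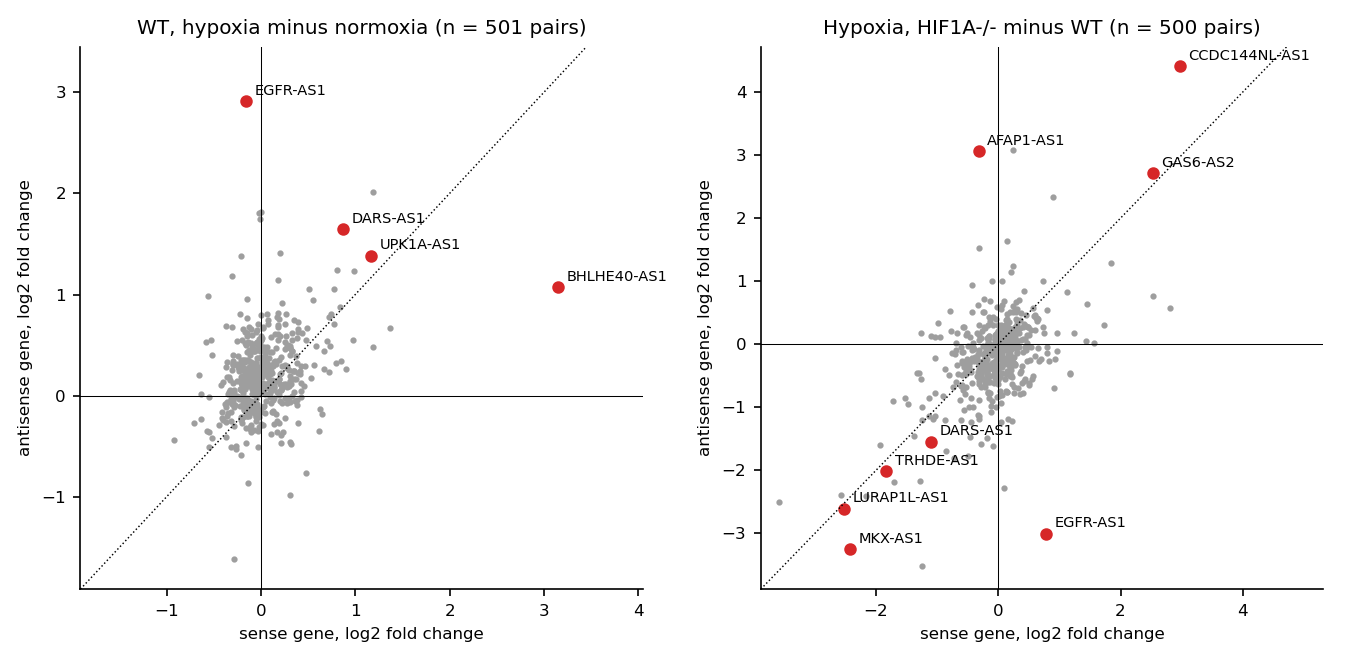
Log2 change of the sense gene (x axis) against that of its antisense gene (y axis) in the gene body, for hypoxia in WT cells (501 pairs) and for HIF1A-/- against WT in hypoxia (500 pairs, leaving out 1 with a group at 0 reads); the dotted line marks equal change and red marks named genes. BHLHE40-AS1 lies 2.01 below the line for hypoxia, and DARS-AS1 0.80 above it.

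No pair differed by edgeR between oxygen levels in HIF1A-/- cells (20 at an unadjusted p under 0.05, beside 58 of the 2780 other pairs, and 0 with the block) or in the interaction (6 unadjusted, beside 42 of the other pairs, and 1 with the block; 0.029% of all pairs, and 0.348% with the block). Between genotypes 1 of 501 pairs differed in normoxia (0.232% of all pairs did) and 9 in hypoxia (1.54% of all pairs did), which is 1.80% of antisense pairs and 1.44% of the other pairs. With the block 32 (4.49% of all pairs) and 105 (17.7%) differed. Over 2978 pairs measured at the TSS, 422 of them antisense, 1 antisense pair differed for WT hypoxia (0.0672% of all pairs), 0 in the interaction (0.0336%) and 3 between genotypes in hypoxia (0.336%). The 1 was HIF1A-AS2 with HIF1A, whose responses differed by 5.14 on the log2 scale (edgeR adjusted p = 0.00388). ALDH1L1-AS2 was the pair called under both oxygen levels. It stood at 1.16 and 3.53 CPM in normoxic WT cells, 1.47 and 3.05 in hypoxic WT cells, 2.64 and 2.98 in normoxic HIF1A-/- cells and 2.56 and 4.29 in hypoxic HIF1A-/- cells, while ALDH1L1, a folate enzyme gene, stood at 0.773 and 1.71, 1.11 and 1.99, 8.73 and 8.47, and 10.3 and 11.9. The antisense difference was thus below the sense difference by 2.47 in log2 units in normoxia (-2.47, edgeR adjusted p = 0.0936) and by 2.26 in hypoxia (-2.26, 0.0565).

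The other hypoxia calls split by which partner moved. ID2, which encodes an inhibitor of helix-loop-helix factors, stood at 24.1 and 42.4 CPM in hypoxic WT cells and 66.8 and 84.2 in hypoxic HIF1A-/- cells, and ID2-AS1 at 72.9 and 116 and then 52.0 and 85.2 (pair difference -1.69, edgeR adjusted p = 0.0601). SEMA6A, of the semaphorin guidance family, stood at 23.2 and 28.4 and then 84.3 and 68.4 CPM, and SEMA6A-AS1 at 7.11 and 8.72 and then 7.48 and 8.73 (-1.52, 0.0608). NR2F2, an orphan nuclear receptor gene, stood at 37.3 and 38.9 and then 101 and 78.6 CPM, and NR2F2-AS1 at 58.1 and 76.7 and then 81.6 and 70.9 (-1.04, 0.0608). In these 3 pairs it was the sense gene whose levels did not overlap between the genotypes in hypoxia. In others the antisense gene was the one apart: DNMBP-AS1 stood at 1.63 and 3.22 CPM in hypoxic WT cells and 0.984 and 0.592 in hypoxic HIF1A-/- cells beside DNMBP at 505 and 719 and then 586 and 578 (-1.52, 0.0847). ARRDC3-AS1 stood at 103 and 150 and then 70.7 and 104 CPM, overlapping, beside ARRDC3, an arrestin family gene, at 178 and 267 and then 77.1 and 110, not overlapping (0.71, 0.0847). AFAP1-AS1 (3.38, 0.0601), SH3PXD2A-AS1 (0.0601) and EGFR-AS1 (0.0847), with the reads given above, complete the 9.

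Where both partners passed singly without the replicate block, they moved the same way, while with it some pairs moved in opposite directions. In the same 501 pairs, both genes passed by edgeR in 1 pair for WT hypoxia, 3 between genotypes in normoxia and 9 in hypoxia, in the same direction each time and in opposite directions in 0. With the replicate block, 57 pairs passed in the same direction and 9 in opposite directions between genotypes in hypoxia. For WT hypoxia 4 passed in the same direction, 0 in opposite directions and 24 through the antisense gene alone. Such counts were not made over the other opposite-strand pairs, so whether they are particular to antisense pairs cannot be told. The log2 changes of antisense and sense genes correlated across pairs with r = 0.32 for WT hypoxia and r = 0.04 for HIF1A-/- hypoxia, against 0.25 and 0.09 over the other pairs, and with r = 0.50 between genotypes in hypoxia against 0.32. These correlations are across pairs that share libraries and are descriptions.

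Likeness over the 8 libraries, as Pearson's r of log2 CPM between antisense and sense gene, had a median of 0.34 over the 501 pairs and 0.34 over the 2780 other opposite-strand pairs. By arrangement, the median r of antisense pairs was 0.48 internal (115 pairs), 0.32 head to head (217), 0.25 tail to tail (45) and 0.30 apart (124). Head to head does not depend on which gene is taken as the sense gene, and there the other pairs had 0.45 (1275). In their remaining classes the minus-strand gene was taken as the sense gene, so pairs of the reverse order fell into another class. The other pairs were also limited to starts within 10 kb or overlapping regions. Their medians, 0.22 internal (209), 0.37 tail to tail (256) and 0.22 apart (1040), are therefore not compared by class. Among all 16685 other genes, the sense gene ranked in the 10 most alike for 3 antisense genes, in the 100 most alike for 26 and in the 1000 most alike for 92. All of these points share the same 8 libraries, and no test was made.

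The most alike pair was LURAP1L-AS1 with LURAP1L (r = 0.99, rank 1 of 16685), followed by SAMD12-AS1 (0.99, rank 7), USP3-AS1 (0.98, rank 5), GAS6-AS2 (0.97, rank 31) and VIM-AS1 (0.97, rank 69). USP3-AS1, tail to tail with a gene for a histone deubiquitinase, is an example without a call: it stood at 22.7 and 30.2 CPM in normoxic WT cells, 27.4 and 32.1 in hypoxic WT cells, 24.7 and 18.8 in normoxic HIF1A-/- cells and 22.7 and 19.6 in hypoxic HIF1A-/- cells, beside USP3 at 169 and 200, 185 and 228, 177 and 151, and 172 and 153. The least alike was CRTC3-AS1 with CRTC3, a coactivator of CREB (r = -0.92). CRTC3-AS1 stood at 62.6 and 82.2, 80.9 and 94.9, 63.8 and 85.2, and 69.9 and 103 CPM, and CRTC3 at 144 and 128, 125 and 117, 145 and 142, and 136 and 124, so that replicate 2 was above replicate 1 for the antisense gene and below it for the sense gene in all 4 groups. MCM8-AS1 (-0.90), AZIN1-AS1 (-0.89), UCKL1-AS1 (-0.89) and PRC1-AS1 (-0.87) were the next least alike.

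**Figure D5:**
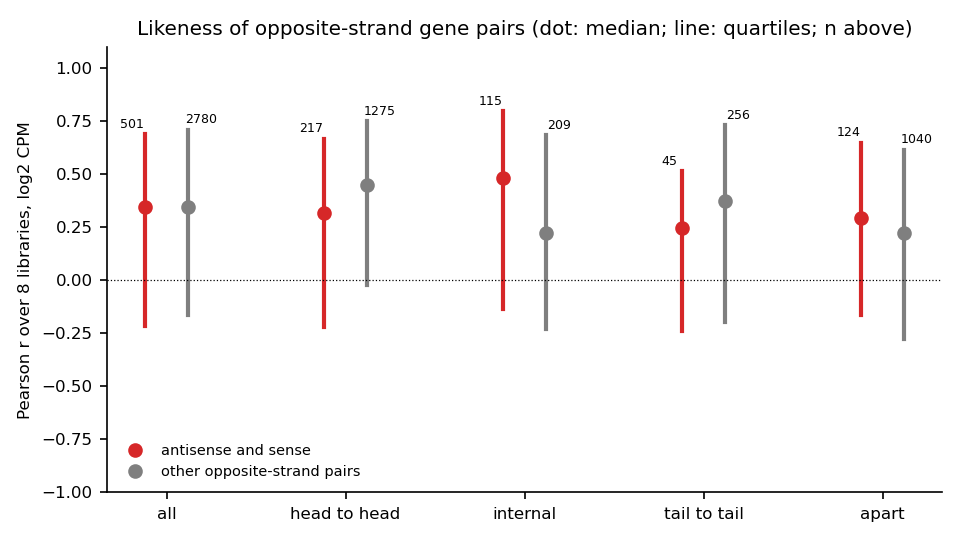
Median (dots) and quartiles (lines) of Pearson's r over the 8 libraries (y axis) by arrangement (x axis), for antisense genes with their sense genes and for other opposite-strand pairs, with the number of pairs above. Head to head antisense pairs lie at 0.32 against 0.45, and internal antisense pairs at 0.48. For the other pairs, classes other than head to head depend on which gene was taken as the sense gene and are not compared.

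Of 25 antisense RNAs listed for having been studied by name, 22 were among the 608. In the gene body 19 were measured, and 0 passed for hypoxia in WT cells by edgeR with or without the block, with a median log2 change of 0.19 and a range of -0.20 to 1.00, beside 0.18 over all antisense genes. Between genotypes in hypoxia AFAP1-AS1 alone passed, higher in HIF1A-/- cells, and of the 4 other settings only the block kept the call. With the block CDKN2B-AS1, MAPKAPK5-AS1, STARD4-AS1 and VIM-AS1 also passed, lower in HIF1A-/- cells. Between genotypes in normoxia 0 passed, and with the block NR2F2-AS1, TMPO-AS1 and VIM-AS1 did, 2 higher and 1 lower in HIF1A-/- cells. At the TSS 20 were measured. HIF1A-AS2 alone passed for WT hypoxia, with or without the block, and between genotypes in hypoxia without it. With the block FOXD2-AS1, TMPO-AS1 and TTN-AS1 also passed between genotypes in hypoxia, and the 4 called divided into 2 higher and 2 lower in HIF1A-/- cells. CDKN2B-AS1, the antisense RNA of the INK4 locus, stood at 88.2 and 92.2 CPM in normoxic WT cells, 101 and 130 in hypoxic WT cells, 69.2 and 82.4 in normoxic HIF1A-/- cells and 76.1 and 88.1 in hypoxic HIF1A-/- cells. Others varied little: OIP5-AS1 ranged from 63.4 to 75.3 CPM over the 8 libraries, MCM3AP-AS1 from 18.4 to 26.7 and ZEB1-AS1 from 9.42 to 12.4. HOXA-AS2 was at 1.40 and 2.37 CPM in normoxic WT cells and 3.37 and 4.32 in hypoxic WT cells, and at 1.18 and 3.55 and then 2.36 and 5.52 in HIF1A-/- cells, where the groups overlapped.

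The letters ACGTG or GCGTG, marked in the windows printed above, were found on either strand in the 300-base window of 341 of 608 antisense genes (56.1%), 57.9% of other genes past the limit and 53.0% of all genes. The share differed between arrangements, as did base composition. It was 67.2% head to head, where the median window had 68.3% G and C and 28 CpG dinucleotides, and 43.3% for internal antisense genes, with 54.7% and 7. Between these it was 50.8% tail to tail, with 60.7% G and C and 17 CpG. It was 53.4% for antisense genes apart from the sense gene, with 59.0% and 15. What part composition has in these shares was not tested. The median log2 change in hypoxic WT cells was 0.19 for the 327 antisense genes with a match and 0.17 for the 244 without, and with the replicate block 21 (6.42%) and 11 (4.51%) of them rose, against 3.81% and 3.46% of the other genes. Without the block, 1 of the 327 rose, DARS-AS1, and 0 of the 244, against 0.543% and 0.297% of the other genes. UPK1A-AS1 also had a match, while HIF1A-AS2 and BHLHE40-AS1 had none.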

How the data were processed

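PRO-seq reads of 8 HCT116 libraries were processed by the authors. Per the methods and the submitters' processing notes (bcl2fastq 2.20.0.422, FastQC 0.11.5, HISAT2 2.1.0, SAMtools 1.5, Subread 1.6.2), reads of both sequencing runs were merged, aligned to GRCh37 (hg19) without splicing, kept above a mapping quality of 10, and counted by strand with featureCounts. The deposited values are raw read counts per gene, in a TSS region of 551 bp (50 bp before to 500 bp after the start) and in a gene body region from 1001 bp after the start to the gene's end, for the most active start site of each RefSeq gene of at least 1500 bp. No unique molecular identifiers are described, so intervals and floors cover counting error only. One start site per gene means that use of other starts was not measured. Gene bodies nested inside another gene body on the same strand were listed at 0.

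CPM and RPKM were computed here from the counts. Genes above 0.5 CPM in at least 2 libraries were tested by edgeR 4.0.16 (R 4.3.3; TMM scaling, quasi-likelihood, all 8 libraries and 4 groups in a fit, Benjamini-Hochberg adjustment over all genes, 10% false discovery rate). Pair differences were tested over 3450 opposite-strand pairs in a fit with a term for each library. The members, their sense genes and the gene lists were chosen with earlier results of these data known. The genes named are the antisense genes called by edgeR without the block and the most and least alike pairs. Named besides are some of the pairs called, of the genes with the smallest p-values and of those called only with the block. Some of the listed antisense RNAs and a few genes chosen for their levels are also named. Replicate numbers paired the samples: deviations from the group means correlated between same-numbered libraries of all 6 group pairs (0.484 to 0.790 in the gene body, 0.216 to 0.519 at the TSS), and a replicate block lowered the common dispersion from 0.0376 to 0.0110 in the gene body. Alternatives were that block, DESeq2 1.42.0, library totals without TMM, no filter on low counts and each library left out. Fits were tested on simulated data. Tables were handled with Python 3.11.15, pandas 2.3.3, NumPy 2.4.6 and SciPy 1.17.1. Sequence came from the GRCh37 genome, and other start site sequences are not reported here. The files' start sites of plus-strand genes lie 1 base before the annotated start.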

Additional observations from a re-analysis of the deposited data

Results flagged for a closer look

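The hypoxia response of the DARS-AS1 gene body differed between the genotypes. With the replicate number as a block, it was larger in WT than in HIF1A-/- cells by 1.43 on the log2 scale (edgeR interaction test, adjusted p = 0.0644). Without the block the difference was 1.42 and did not pass (edgeR adjusted p = 0.624). In the libraries themselves, hypoxia exceeded normoxia in both WT replicates, from 9.47 to 34.5 and from 14.3 to 41.3 CPM, and in both HIF1A-/- replicates, from 10.5 to 12.1 and from 11.2 to 14.1 CPM.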

How the results depend on the processing

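Counts of antisense genes called depended most on the replicate block. With it the gene body counts were 33 for WT hypoxia, 1 for the interaction, 64 between genotypes in normoxia and 149 in hypoxia, and at the TSS 8, 24 and 77 for WT hypoxia and the genotypes in normoxia and hypoxia. Pair differences became 34 for WT hypoxia, 1 for the interaction, 32 and 105. DESeq2 gave 2, 1, 19 and 34 in the gene body, and 5 and 10 between genotypes at the TSS. Without the filter on low counts the TSS counts were 4 for WT hypoxia (0.707% of antisense genes, 0.356% of all genes), 1 for the interaction (0.177%, 0.0453%), 16 (2.83%, 2.30%) and 38 (6.71%, 6.01%). In the TSS table the pair counts were 1, 0 and 3 for WT hypoxia and the genotypes. Median likeness of antisense and sense genes was 0.167 at the TSS. The ratio of TSS to gene body density, as a mean over the 8 libraries, was 9.55, and 10.3 with a limit of 1 CPM. Library totals without TMM left each count within 1.5 times. The causes were not tested.

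Leaving out 1 library at a time, gene body counts ran from 0 to 1 for WT hypoxia, 1 to 8 between genotypes in normoxia and 3 to 26 in hypoxia. TSS counts ran from 0 to 1, 0 to 17 and 1 to 22, and pair counts from 0 to 1, 0 to 1 and 0 to 10. For HIF1A-/- hypoxia and the interaction they were 0 throughout. The lone library left in a group was assumed to vary like the others. Shares called over all genes or all pairs are not given for these fits. Whether the ranges are particular to antisense genes therefore cannot be told. Of the alternative values of single named genes, 282 stayed on their side of the threshold, 85 lost the call, 5 gained it and 0 reversed. With 2 libraries per group, depth limits what weak genes can show: 3 reads are up to 0.166 CPM in the gene body and 1.08 CPM at the TSS.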
